A study of Mus musculus with 6 samples.

Results

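The tumour necrosis factor (TNF) family was followed in mouse M2 macrophages (Mφs) through 10 genes that were picked by symbol, 6 ligands (Tnf, Ltb, Tnfsf10, Tnfsf12, Tnfsf13b and Tnfsf14) and 4 receptors (Tnfrsf1a, Tnfrsf1b, Fas and Ltbr). All 10 were found among the 41549 genes of the count table. The table holds mRNA counts of 6 libraries of bone marrow-derived Mφs from wild-type C57Bl/6 N mice, grown for 7 days with macrophage colony-stimulating factor and polarized for 48 h with IL-4 and IL-13 at 10 ng/ml. Before polarization the cells of every library were transfected with an antisense oligonucleotide by lipofection. The 3 Ctr libraries received a control antisense and the 3 αGlu libraries an antisense against 5′tRF-Glu(CTC), which is cut from the 5′ side of tRNA-Glu. No untransfected or unpolarized cells were among them. The mice were 10 to 12 weeks old according to the Mφ protocol and 12 to 14 weeks old according to the description of the animals, and both sexes were used. The study names the libraries of a group as independent experiments. The comparison asks how blocking the fragment affects the family in M2 Mφs.

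TNF family ligands are mostly made as membrane-bound trimers that bind trimeric receptors on the same or on neighbouring cells, and some are cut free from the membrane. Receptors with a death domain, such as Tnfrsf1a and Fas, can recruit the caspase-8 machinery, whereas receptors without one, such as Tnfrsf1b and Ltbr, bind TRAF adaptor proteins that lead to NF-κB. Mφs are a main source of TNF, and they carry both TNF receptors.

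The antisense and its target are shown because the contrast between the groups rests on them. The letters come from the study's oligonucleotide list, and capitals mark the paired bases, positions 2 to 21 of the target.
Antisense, 5′ to 3′: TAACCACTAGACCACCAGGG
Target, 5′ to 3′: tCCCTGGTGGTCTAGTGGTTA
The table counts mRNA, so the level of the fragment itself could not be checked in these libraries.

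The next sequences are the 250 bases before the start sites of Tnf, Fas and Tnfsf14, the 3 members that were highest in αGlu 2 and αGlu 3 compared with Ctr. They come from RefSeq (GRCm38.p6) and are written 5′ to 3′ on the strand of the gene. Capitals mark matches to a κB pattern, the letters GGGNNNNNCC on either strand.
Tnf, chr17:35202008-35202257, minus strand: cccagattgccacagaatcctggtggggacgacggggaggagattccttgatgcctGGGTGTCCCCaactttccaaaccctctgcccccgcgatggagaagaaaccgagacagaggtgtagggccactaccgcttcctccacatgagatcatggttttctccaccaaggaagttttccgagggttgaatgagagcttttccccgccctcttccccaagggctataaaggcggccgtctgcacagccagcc
Fas, chr19:34290409-34290658, plus strand: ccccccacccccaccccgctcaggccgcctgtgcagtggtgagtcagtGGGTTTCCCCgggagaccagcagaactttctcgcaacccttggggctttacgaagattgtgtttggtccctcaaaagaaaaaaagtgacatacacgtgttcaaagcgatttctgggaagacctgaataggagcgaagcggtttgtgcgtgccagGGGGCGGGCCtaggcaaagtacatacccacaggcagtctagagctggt
Tnfsf14, chr17:57194182-57194431, minus strand: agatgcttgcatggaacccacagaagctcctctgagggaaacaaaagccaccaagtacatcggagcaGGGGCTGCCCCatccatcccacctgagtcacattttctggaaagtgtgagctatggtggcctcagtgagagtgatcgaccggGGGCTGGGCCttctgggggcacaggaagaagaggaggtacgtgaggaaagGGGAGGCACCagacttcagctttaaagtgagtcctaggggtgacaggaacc

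The Tnf window held 1 match, which begins 194 bases before the start site. Fas had 2, at 202 and 48 bases before it. Tnfsf14 had 4, at 183, 182, 101 and 51 bases, and those at 183 and 182 overlap. Of the 10 windows of the 9 members with an entry, 7 held the κB letters, including those of Tnfrsf1a, Tnfrsf1b, Ltbr and Ltb, compared with 45.8% of all 32851 windows of this length. The windows of Tnfsf10 and Tnfsf13b held none, and Tnfsf12 had no entry. A STAT pattern with 3 free bases (TTCNNNGAA) was in 4 of the 10 windows and in 7.02% of all windows, and the pattern with 4 free bases (TTCNNNNGAA) in 3 of the 10 and in 5.85% of all. Of these 3, 2 are overlapping windows of Tnfsf13b and the other is that of Ltbr. Both STAT patterns were searched on either strand, as were the κB letters. These matches describe letters in the windows and not binding.

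Total counts ranged from 17912831 in αGlu 1 to 30386653 in αGlu 2. αGlu 1 stood apart from αGlu 2 and αGlu 3. Across the tested genes, which are not replicates, its log2 CPM had a Pearson r of 0.966 to 0.982 with the Ctr libraries but 0.929 with either of its own group. Whether αGlu 1 took up the antisense as labelled could not be checked in mRNA counts, and every value over all 6 libraries rests on that label. Results are therefore given with and without this library. It was singled out by its likeness to Ctr in the same counts that the tests use. Adjusted p and SE without it therefore tend to be too small, and calls in those fits are descriptive only. For 42.6% of the 11933 tested genes its level lay within the range of the Ctr libraries, and for the family this held for 4 of the 8 members that could be tested. All 8 Mφ markers were above 1 CPM on average (reads scaled to 1000000 of the adjusted library size), and their sum was 11850 to 13400 CPM in Ctr and 12590 to 18780 CPM in αGlu, of which Lyz2 made up 54.0% on average. Within that list Cd68 was at 1809 to 2063 CPM in Ctr versus 1990, 1237 and 1144 CPM in αGlu 1, 2 and 3. Mertk was also below Ctr in αGlu 2 and αGlu 3. Cd14 shifted most, at 17.3 to 30.1 CPM in Ctr versus 12.5, 293 and 240 CPM. Adgre1, Itgam and Lyz2 were above Ctr in αGlu 2 and αGlu 3, and Fcgr1 in every αGlu library. Csf1r was at 2400 to 2771 CPM in Ctr versus 2481, 2777 and 3055 CPM. The 10 markers of the IL-4 response, which define the M2 state, summed to 2841 to 4552 CPM in Ctr and 4023 to 6945 CPM in αGlu, but its members differed in direction. Retnla was at 246 to 540 CPM in Ctr versus 101, 0.0315 and 0.0367 CPM in αGlu 1, 2 and 3. Mgl2 had 66.3 to 87.9 CPM in Ctr versus 10.6, 0.50 and 2.35 CPM, and Irf4 had 25.3 to 30.4 CPM versus 8.95, 2.05 and 1.54 CPM. Arg1 had 24.3 to 45.2 CPM in Ctr versus 23.5, 1886 and 1792 CPM. Mrc1 had 771 to 948 CPM versus 840, 1513 and 2379 CPM. Ccl24 had 0.25 to 0.64 CPM versus 0.23, 9.07 and 16.2 CPM. Chil3, which made up 53.7% of the sum on average, overlapped at 1479 to 2895 CPM versus 3025, 3529 and 2160 CPM. Ccl22 and Ccl17 (at most 21 reads) were lower in every αGlu than in every Ctr library, and Clec10a overlapped. The largest shifts in these markers thus fell in αGlu 2 and αGlu 3, the libraries in which Tnf, Fas and Tnfsf14 were high. The lymphocyte marker Cd3g and the neutrophil marker Ly6g were at 0 reads in every library, which allows up to 0.172 CPM at the lowest depth. Of the 12 lymphocyte markers only Cd4 averaged above 1 CPM. The summed neutrophil list was at 108 to 160 CPM in Ctr and 187 to 609 CPM in αGlu, and Csf3r made up 98.8% of it. The 8 dendritic cell markers summed to at most 2.42 CPM. The 8 fibroblast markers reached 11.1 CPM in Ctr 1 and at most 4.36 CPM elsewhere. What these marker levels contribute to the differences below was not tested.

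Tnfrsf1b, Tnfrsf1a and Ltbr were, with the ligand gene Tnfsf12, the 4 most abundant members. Levels of different genes are compared here in deposited TPM, which scale transcripts by gene length. Tnfrsf1b, the TNF receptor that prefers membrane-bound TNF, was the highest member at 1065 ± 49.8 TPM in Ctr (SD, n = 3) and 1036 ± 104 TPM in αGlu, and it ranked between 96 and 130 among all genes of a library. It made up 69.5% ± 1.03 of the summed TPM of the 10 members in Ctr. Tnfsf12, which encodes the ligand TWEAK, followed with 193 ± 13.6 TPM in Ctr. Tnfrsf1a, the widely expressed death domain receptor of TNF, stood at 160 ± 7.90 TPM, and Ltbr, the receptor of lymphotoxin and of the Tnfsf14 product LIGHT, at 89.0 ± 5.86 TPM. In each of these steps every Ctr library of the higher gene lay above every Ctr library of the next one.

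**Figure D1:**
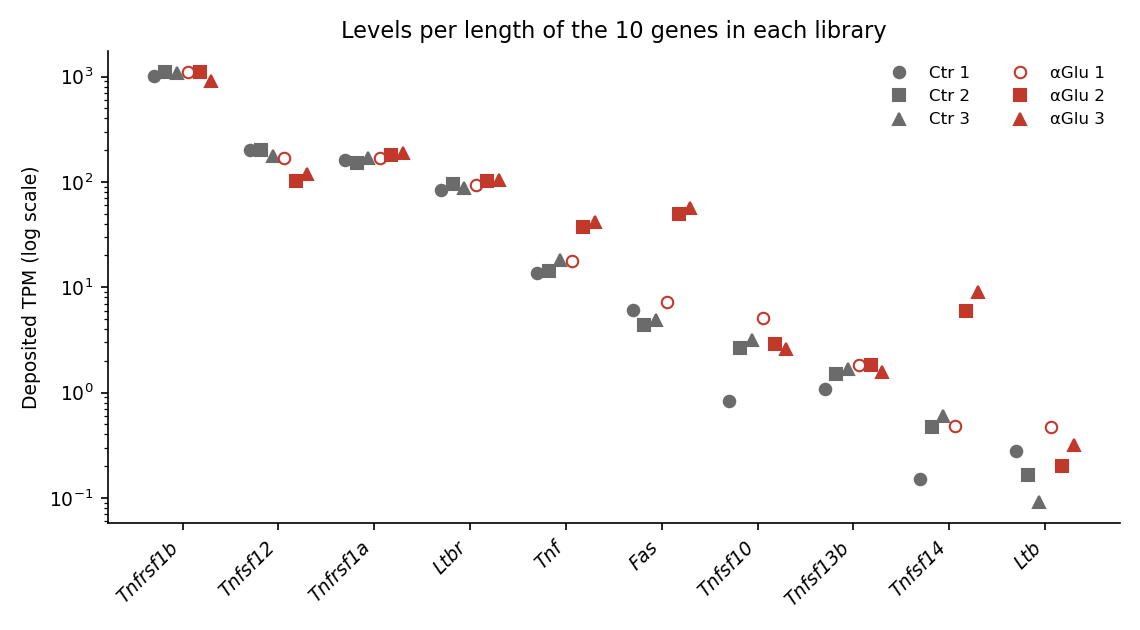
Deposited TPM on a log axis of the 10 genes in each of the 3 Ctr libraries (grey) and the 3 αGlu libraries (red, αGlu 1 open), ordered by the Ctr mean. Tnfrsf1b is highest at 915 to 1098 TPM, and Fas, Tnf and Tnfsf14 stand higher in αGlu 2 and αGlu 3 than in the other 4 libraries.

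The other 6 members were low in Ctr. Tnf was at 15.3 ± 2.37 TPM and Fas at 5.14 ± 0.87 TPM. Tnfsf10, the ligand TRAIL, and Tnfsf13b, the B cell survival factor BAFF, were at 2.19 ± 1.22 and 1.41 ± 0.30 TPM, and their Ctr libraries overlapped. Tnfsf14 at 0.41 ± 0.23 TPM and Ltb at 0.18 ± 0.093 TPM overlapped as well and were the lowest. The order differed in the αGlu libraries. Fas was above Tnf in αGlu 2 (49.7 and 37.0 TPM) and αGlu 3 (56.2 and 41.6 TPM) but not in αGlu 1 (7.16 and 17.7 TPM). Tnfsf14 was above Tnfsf10 in αGlu 2 (5.90 and 2.89 TPM) and αGlu 3 (8.94 and 2.56 TPM), and below it in αGlu 1 (0.48 and 5.1 TPM). Tnfsf12 was below Tnfrsf1a in all αGlu libraries, at 169, 101 and 119 TPM against 170, 178 and 189 TPM. It was above Ltbr in αGlu 1 and αGlu 3 (92.7 and 103 TPM for Ltbr), and in αGlu 2 the levels of 101 and 102 TPM were close.

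Of the 10 members, 8 had enough reads for the test over all libraries, and Ltb and Tnfsf14 did not. No member was called by edgeR's quasi-likelihood test at an adjusted p under 0.1 and a fold above 2. This was also the case for all 11933 tested genes (0% called), where the smallest adjusted p was 0.149. Before adjustment 3 members had a p under 0.05, Tnf and Fas on the higher and Tnfsf12 on the lower side, against 24.7% of all tested genes. Of the 8, 6 had a positive and 2 a negative log2 fold change (αGlu over Ctr) with a median of 0.15, and over all tested genes 6200 were positive with a median of 0.02. Fas was the only tested member with no overlap on the higher side (14.2% of all tested genes), and Tnfsf12 the only one on the lower side (15.9%).

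The number of calls depended on αGlu 1, which was set aside for its likeness to Ctr in these same counts. Without it 9 members could be tested and Fas, Tnfsf14 and Tnf were called, all higher in αGlu. In that fit 18.6% of the 12340 genes tested were called in either direction. Tnfsf14 entered the fit only through αGlu 2 and αGlu 3, where it was high, so its call is not independent of the filter. On the adjusted p alone Tnfsf12 also passed, as did 49.1% of all genes. DESeq2 on all 6 libraries called Fas and Tnfsf14 (8.13% of the 13742 genes it gave an adjusted p).

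**Figure D2:**
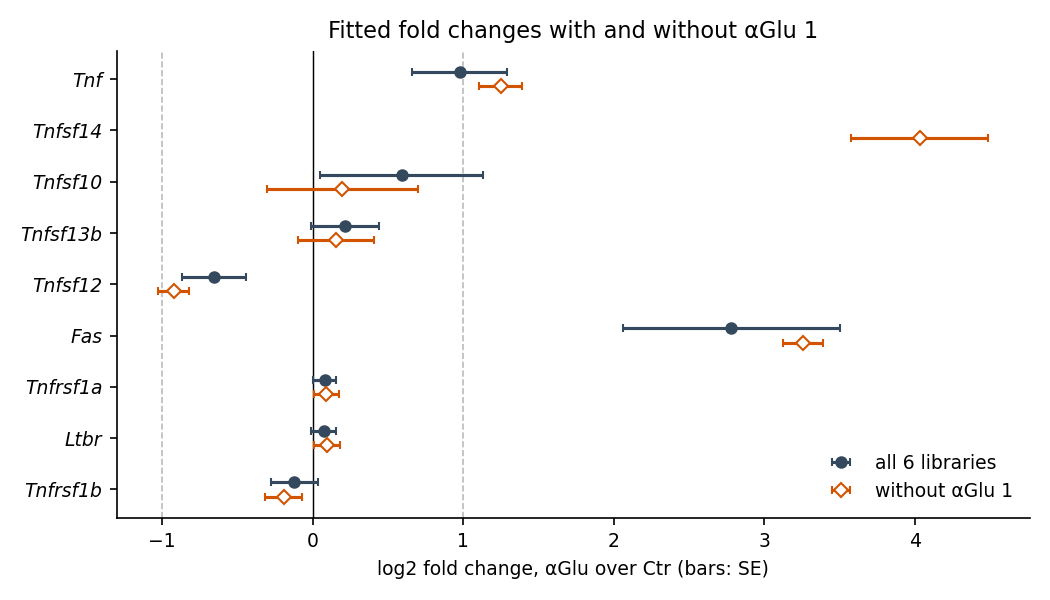
Log2 fold change of αGlu over Ctr from edgeR's quasi-likelihood fit for all 6 libraries (filled circles, 8 members) and without αGlu 1 (open diamonds, 9 members), with bars for the SE and dashed lines at 2-fold. Fas moves from 2.78 to 3.26 and its SE from 0.72 to 0.13, while Tnfrsf1a, Tnfrsf1b and Ltbr stay near 0 in both fits. αGlu 1 was left out for its likeness to Ctr in the same counts, so SE without it tend to be too small.

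Among the ligands, Tnf (ENSMUSG00000024401, chr17:35199381-35202007, minus strand) encodes the founding cytokine of the family, which drives inflammation. It had 161, 186 and 213 reads in Ctr 1, 2 and 3 and 163, 601 and 565 reads in αGlu 1, 2 and 3. At 18.9 and 20.7 CPM, αGlu 2 and αGlu 3 exceeded every Ctr library (7.31 to 9.88 CPM), and αGlu 1 at 9.35 CPM lay inside that range. The log2 fold change was 0.98 ± 0.31 (SE, adjusted p = 0.163), with a 95% interval of 0.21 to 1.75. Without αGlu 1 it was 1.25 ± 0.14 at an adjusted p of 0.00112. Over 14 settings the adjusted p ran from 0.00112 to 0.433. In bulk RNA a change in the number of cells that express a gene and a change in RNA per cell cannot be told apart.

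Tnf lies between the related ligand genes Ltb and Lta on chromosome 17, with 3060 bases to Ltb and 1157 bases to Lta. Both neighbours were close to undetected. Ltb (ENSMUSG00000024399, chr17:35194439-35196320, plus strand), the membrane anchor of lymphotoxin, had 3, 2 and 1 reads in Ctr and 4, 3 and 4 reads in αGlu. Lta, the soluble partner in that complex, had 0, 1 and 0 reads in Ctr and 0, 7 and 2 reads in αGlu. At this depth no difference in Ltb was detectable, since the exact Poisson 95% intervals of all libraries overlap (0.0281 to 0.398 CPM in Ctr 1, 0.0195 to 0.276 CPM in αGlu 2). Such intervals cover counting error only.

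Tnfsf14 (ENSMUSG00000005824, chr17:57189492-57194177, minus strand) encodes LIGHT, a ligand of Ltbr and of the herpesvirus entry mediator Tnfrsf14. Reads numbered 2, 7 and 8 in Ctr 1, 2 and 3, and 5, 108 and 137 in αGlu 1, 2 and 3. The gene was thus at 3.40 and 5.03 CPM in αGlu 2 and αGlu 3, with exact Poisson 95% intervals of 2.79 to 4.11 and 4.22 to 5.94 CPM, and at most at 0.37 CPM in the other 4 libraries. It missed the filter on low counts, which asks for enough reads in 3 libraries. With no filter the log2 fold change was 3.52 ± 0.99 (SE, adjusted p = 0.166). Leaving out αGlu 1 gave 4.03 ± 0.46, in a fit that the gene entered only through αGlu 2 and αGlu 3. The adjusted p in the latter fit was 0.000998, and it was 0.0111 with DESeq2, within a range of 0.000998 to 0.351 over 6 settings.

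Tnfsf12 (ENSMUSG00000097328, chr11:69686250-69695849, minus strand), whose product TWEAK binds the receptor Tnfrsf12a, was the only tested member that was lower in every αGlu than in every Ctr library. It had 98.2, 103 and 90.0 CPM in Ctr 1, 2 and 3 versus 82.4, 47.7 and 54.9 CPM in αGlu 1, 2 and 3. Even αGlu 1, the closest to Ctr, was below the lowest Ctr library. The log2 fold change was -0.66 ± 0.21 (SE, adjusted p = 0.163). Without αGlu 1 it was -0.92 ± 0.10 at an adjusted p of 0.000899, in a range of 0.000899 to 0.433 over 14 settings, so there the adjusted p passed and the fold did not reach 2.

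The Tnfsf12 value carries a limit of annotation. In GENCODE M21 its exons overlap those of Tnfsfm13, a gene model on the same strand that joins Tnfsf12 to Tnfsf13, the APRIL gene 465 bases downstream. Strand cannot separate their reads. Tnfsfm13 was at 49.3 ± 1.35 CPM in Ctr (SD, n = 3) versus 41.1, 23.2 and 17.9 CPM in αGlu 1, 2 and 3. Tnfsf13 itself was at 20.6 ± 3.25 CPM in Ctr versus 23.5, 12.2 and 13.1 CPM in αGlu 1, 2 and 3.

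Tnfsf10 (ENSMUSG00000039304, chr3:27317028-27342427, plus strand) encodes TRAIL, a ligand of death receptors that is known to be induced by interferons. Its values were 1.41, 4.64 and 5.52 CPM in Ctr 1, 2 and 3 versus 8.66, 4.75 and 4.11 CPM in αGlu 1, 2 and 3. Unlike Tnf and Fas it was highest in αGlu 1, and the lowest value was that of Ctr 1, whereas αGlu 2 and αGlu 3 lay within the Ctr range. The log2 fold change was 0.59 ± 0.54 (SE, adjusted p = 0.5005). It was 0.20 without Ctr 1 and 0.20 without αGlu 1. Tnfsf13b (ENSMUSG00000031497, chr8:10006467-10039072, plus strand), the BAFF gene, was at 2.41, 3.43 and 3.81 CPM in Ctr versus 4.01, 3.90 and 3.26 CPM in αGlu. The groups overlapped, and the log2 fold change came to 0.21 ± 0.23 (SE, adjusted p = 0.559) and a 95% interval of -0.34 to 0.76.

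**Figure D3:**
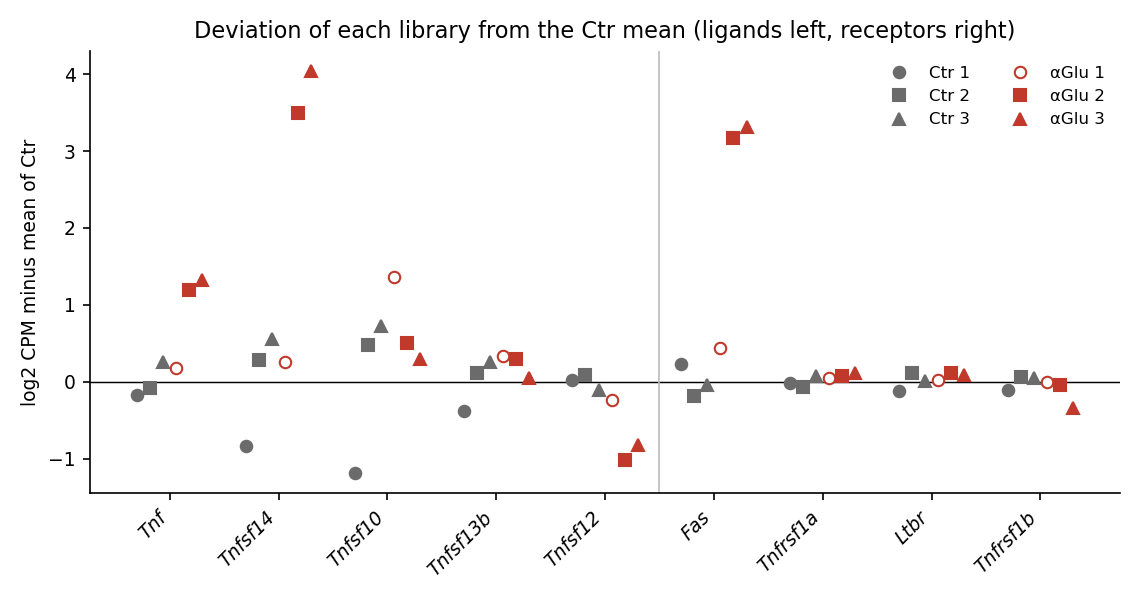
Log2 CPM of each library minus the mean of the 3 Ctr libraries, for 9 members (Ltb, at 1 to 4 reads, is left out), with ligands left and receptors right of the grey line. Fas and Tnfsf14 deviate by over 3 in αGlu 2 and αGlu 3, αGlu 1 (open) lies with Ctr for most genes, and Tnfsf10 is lowest in Ctr 1.

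Among the receptors, Fas showed the largest fold change of the tested members. Fas (ENSMUSG00000024778, chr19:34290666-34327772, plus strand) is a death receptor whose ligand can trigger apoptosis of the cells that carry it. It had 90, 73 and 73 reads in Ctr 1, 2 and 3 and 83, 1016 and 961 reads in αGlu 1, 2 and 3. The corresponding levels were 4.09, 3.05 and 3.39 CPM in Ctr versus 4.76, 32.0 and 35.3 CPM in αGlu. The αGlu 1 value exceeded the highest Ctr library, but their exact Poisson 95% intervals overlap (3.79 to 5.90 CPM in αGlu 1, 3.29 to 5.03 CPM in Ctr 1). The log2 fold change was 2.78 ± 0.72 (SE, adjusted p = 0.156), with a 95% interval of 1.02 to 4.54. Without αGlu 1 it was 3.26 ± 0.13 with an adjusted p of 2.86e-05, and with DESeq2 on all libraries 2.77 ± 0.65 with an adjusted p of 0.00139. The adjusted p ranged from 2.86e-05 to 0.427 over 14 settings. Fasl, which encodes its ligand, had at most 1 read in any library.

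For the other receptors no difference beyond the spread of the libraries was found. Tnfrsf1a (ENSMUSG00000030341, chr6:125349362-125362484, plus strand) was at 136, 132 and 145 CPM in Ctr versus 142, 144 and 149 CPM in αGlu, for which the log2 fold change came to 0.08 ± 0.08 (SE, adjusted p = 0.532) with a 95% interval of -0.11 to 0.27. Ltbr (ENSMUSG00000030339, chr6:125306571-125313885, minus strand), which lies 35476 bases from Tnfrsf1a, was at 63.8, 75.2 and 69.5 CPM in Ctr versus 70.3, 75.1 and 73.8 CPM in αGlu. The fitted log2 fold change of Ltbr was 0.07 ± 0.08 (SE, adjusted p = 0.596) with a 95% interval of -0.13 to 0.28. For these genes the intervals leave no room for a 2-fold change in the fit of all libraries.

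Tnfrsf1b (ENSMUSG00000028599, chr4:145213463-145246870, minus strand) was at 1250, 1407 and 1390 CPM in Ctr versus 1348, 1307 and 1063 CPM in αGlu. Its lowest value was that of αGlu 3, and the groups overlapped. The log2 fold change was -0.12 ± 0.16 (SE, adjusted p = 0.626), with a 95% interval of -0.50 to 0.26. The ratio of Tnfrsf1b to Tnfrsf1a in TPM was 6.22, 7.25 and 6.52 in Ctr and 6.43, 6.14 and 4.83 in αGlu. On the log2 scale αGlu was lower by 0.21 on average (two-sided exact permutation p = 0.2). With 3 libraries against 3, this test cannot go below 0.1.

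Genes with the most similar profiles were looked up for the 5 members with a library more than 1 log2 unit from the Ctr mean. Likeness was the root mean square difference over the 6 libraries between log2 CPM profiles centred on Ctr, among 8577 genes that averaged at least 3 in log2 CPM. For Tnf these were Cyp4f16 (0.054), Cep19 (0.074) and Rhobtb2 (0.077). For Fas they were Il4ra (0.15), Pfkl (0.19) and Ehd1 (0.21), of which Il4ra, the IL-4 receptor chain, was 3.01 and 3.34 log2 units above Ctr in αGlu 2 and αGlu 3. For Tnfsf14 they were Plbd1 (0.26), Orai2 (0.28) and Il1rn (0.39). Wdsub1 (0.044), Emp3 (0.054) and Casp9 (0.057) were nearest to Tnfsf12. Gbp3 (0.17), Herc6 (0.19) and Ifi211 (0.24) were nearest to Tnfsf10. Each was lowest in Ctr 1, by 1.10 to 1.36 log2 units, and highest in αGlu 1. All of these neighbours were picked for likeness over the same 6 libraries, so a shared pattern follows from the choice.

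The rest of the pathway was described with 5 further lists, in which edgeR's quasi-likelihood test called no gene over all libraries. DESeq2 on all 6 libraries called 3 of 6 other ligands, 3 of 18 other receptors and 3 of 30 signalling genes. It also called 2 of 10 genes for shedding and 2 of 14 regulators of Tnf mRNA, beside 8.13% of all genes. Of the 12 other ligands 4 were tested. Tnfsf15, the ligand TL1A, had the smallest p of them. It stood at 3.52 ± 0.79 CPM in Ctr (SD, n = 3) versus 6.14, 9.73 and 8.44 CPM in the αGlu libraries (log2 fold change 1.20 ± 0.25, SE, adjusted p = 0.149), and every αGlu library was above Ctr. Tnfsf9, the ligand of the costimulatory receptor 4-1BB, stood at 0.59 ± 0.070 CPM in Ctr versus 0.57, 7.37 and 8.91 CPM in αGlu 1, 2 and 3. Tnfsf8, the ligand of CD30, spread from 0.55 to 4.41 CPM in Ctr and from 0.33 to 1.49 CPM in αGlu. Without αGlu 1, 4 of 5 tested genes of this list were called, beside 18.6% of all genes in that fit. Of these, 2 were higher (Tnfsf9, Tnfsf15) and 2 lower (Tnfsf4, the OX40 ligand, and Tnfsf8). Tnfsf4 entered that fit only through Ctr 2 and Ctr 3 (12 and 16 reads), so its call is not independent of the filter.

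Of 24 other receptors 13 were tested, 8 with a positive and 5 with a negative log2 fold change. Cd40, a costimulatory receptor of antigen-presenting cells, was at 7.17 ± 2.75 CPM in Ctr versus 9.98, 30.2 and 27.8 CPM in the αGlu libraries (log2 fold change 1.66 ± 0.48, SE, adjusted p = 0.159). Tnfrsf11a, the receptor RANK, had 86.8 ± 7.83 CPM in Ctr versus 76.6, 58.1 and 51.8 CPM in αGlu 1, 2 and 3, below every Ctr library. Tnfrsf23, which encodes a decoy receptor for TRAIL, was at 21.1 ± 1.09 CPM in Ctr versus 24.8, 32.1 and 26.6 CPM in αGlu. Tnfrsf26 was at 52.2 ± 7.51 CPM in Ctr versus 41.2, 87.7 and 77.2 CPM in αGlu. Without αGlu 1, 6 of 15 tested receptors were called (18.6% of all genes). These were Cd40, Relt, Tnfrsf9 and Tnfrsf11b on the higher side and Tnfrsf12a and Tnfrsf21 on the lower side. Tnfrsf9 and Tnfrsf11b entered that fit only through αGlu 2 and αGlu 3, where they were high. Their calls, and so the count, are not independent of the filter. For Tnfrsf12a, the TWEAK receptor, the log2 fold change over all libraries was -1.03 ± 0.58 (SE, adjusted p = 0.294 by edgeR) with overlap between the groups, and it was -1.95 ± 0.25 without αGlu 1.

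All 30 genes of the signalling list, which act downstream of the receptors, were tested, and 24 had a positive log2 fold change (median 0.18), against 6200 of the 11933 tested genes (median 0.02). An unadjusted p under 0.05 was found for 12 of the 30, 10 higher and 2 lower, and for 24.7% of all genes. Map3k14, the NIK kinase of the alternative NF-κB branch to which Ltbr signals, was at 18.3 ± 1.13 CPM in Ctr versus 24.3, 23.6 and 27.6 CPM in the αGlu libraries (log2 fold change 0.46 ± 0.098, SE, adjusted p = 0.152), so that here αGlu 1 stood with αGlu 2. Cflar, the caspase-8 inhibitor cFLIP that acts below Fas and Tnfrsf1a, was at 138 ± 25.3 CPM in Ctr versus 179, 307 and 296 CPM in αGlu. Traf1, an adaptor bound by Tnfrsf1b, was at 4.62 ± 1.07 CPM in Ctr versus 4.65, 72.8 and 62.5 CPM in αGlu. Tab2, a partner of the kinase TAK1, was at 124 ± 3.01 CPM in Ctr versus 126, 161 and 173 CPM in αGlu. Without αGlu 1, 6 of the 30 were called, a share close to the 18.6% of all genes. These were Traf1, Birc3, Tnfaip3, Cflar and Tank on the higher side and Traf5 on the lower side.

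The 10 genes for shedding and processing of ligands and receptors were all tested, 6 positive and 4 negative. Adam17, the protease that releases TNF from the membrane, was at 243 ± 7.65 CPM in Ctr versus 240, 302 and 334 CPM in αGlu 1, 2 and 3. Timp3, an inhibitor of that protease, was at 1.88 ± 0.061 CPM in Ctr versus 1.26, 0.91 and 0.62 CPM in αGlu. Rhbdf1, which helps to bring ADAM17 to the cell surface, was at 1.81 ± 0.12 CPM in Ctr versus 0.63, 1.04 and 0.33 CPM in αGlu. Timp3 had only 17 to 46 reads in a library, and Rhbdf1 only 9 to 42. The related Rhbdf2, chosen after its values were seen, was far more abundant and went the other way. It was at 125.7 ± 10.8 CPM in Ctr versus 138.4, 161.5 and 145.1 CPM in αGlu. Every αGlu library was above Ctr, as for 14.2% of all tested genes. Both Timp3 and Rhbdf1 were lower in every αGlu library than in Ctr, as were 15.9% of all tested genes. They were the 2 calls among the 10 genes without αGlu 1, close to the 18.6% of all genes. Frmd8, which stabilizes the same complex, was at 63.5 ± 6.93 CPM in Ctr versus 55.9, 42.2 and 43.5 CPM in αGlu. Sppl2a, an intramembrane protease that cuts the remaining TNF stub, was at 236 ± 28.7 CPM in Ctr versus 267, 295 and 313 CPM in αGlu.

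Regulators of Tnf mRNA and transcription formed a list of 14 genes, all tested, with 7 positive and 7 negative. Zfp36l1, which binds AU-rich elements and speeds mRNA decay, was at 78.4 ± 9.80 CPM in Ctr versus 101, 411 and 429 CPM in the αGlu libraries (log2 fold change 2.00 ± 0.54, SE, adjusted p = 0.157). Zc3h12a, the ribonuclease regnase-1, was at 43.1 ± 3.22 CPM in Ctr versus 50.5, 134 and 129 CPM in αGlu. For both and for Mapkapk2, every αGlu library was above every Ctr library, 3 of the 14 genes (14.2% of all tested genes). Another 2 were lower in every αGlu library (15.9% of all tested genes). Of these, Zfp36l2 was at 204.7 ± 12.6 CPM in Ctr versus 190.1, 103.5 and 103.5 CPM in αGlu. Zfp36 overlapped, at 132.3 ± 27.6 CPM in Ctr versus 130, 152.9 and 138.4 CPM in αGlu. These relatives of Zfp36l1 were chosen after their values were seen. Zfp36l1 and Zc3h12a were the 2 calls among the 14 genes without αGlu 1, a share below the 18.6% of all genes. Mapkapk2, the kinase MK2 that permits TNF synthesis, was at 155 ± 4.33 CPM in Ctr versus 166, 218 and 238 CPM in αGlu. Litaf, named as a regulator of TNF transcription, was at 465 ± 40.8 CPM in Ctr versus 462, 358 and 403 CPM in αGlu.

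**Figure D4:**
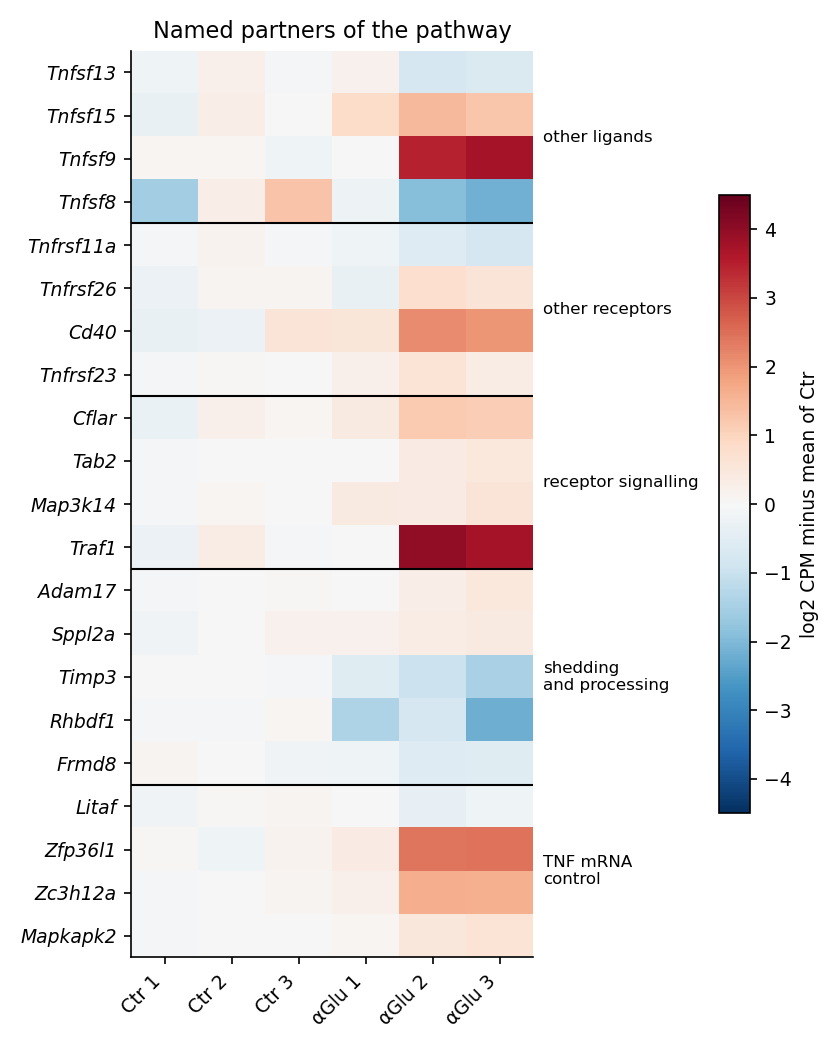
Log2 CPM minus the mean of the 3 Ctr libraries for the named genes of the 5 further lists (rows) in each of the 6 libraries (columns), red for higher and blue for lower. Traf1 and Tnfsf9 are highest in αGlu 2 and αGlu 3, Rhbdf1 is lower in all 3 αGlu libraries, and αGlu 1 is pale for most other genes.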

How the data were processed

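Stranded mRNA libraries of 6 M2 Mφ cultures (3 Ctr, 3 αGlu) were processed by the authors in version 5.1 of a QIAGEN portal for RNA-seq; the build GRCm38 is from the submitters' processing notes, and the aligner was not given in the sources used here. The deposited counts are unnormalized reads per gene, and the deposited TPM and RPKM were scaled by the authors by length and depth. A deposited CPM column per library and the authors' own comparison were not used. Coordinates are from GENCODE M21 (GRCm38).

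Counts were tested with edgeR 4.0.16 in R 4.3.3 (filterByExpr with minimum count 10 and minimum total 15, TMM factors, quasi-likelihood, two-sided, Benjamini-Hochberg). Calls required an adjusted p under 0.1 and a fold above 2. CPM are counts scaled to 1000000 of TMM-adjusted library size, and log2 CPM have a prior count of 2. The ratio of receptors was compared with an exact permutation test. Alternatives were DESeq2 1.42.0, limma-voom (limma 3.58.1), RLE factors, library size alone, no filter, no fold limit, a replicate block and each library left out.

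Members and lists were chosen with earlier results of these data known. Named were all members, and from each further list the called genes, the 2 of highest mean CPM and the 3 of smallest p, and the 3 nearest profiles of members that deviated by more than 1 log2 unit. The value of 1 read was 0.0315 to 0.0574 CPM.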

Additional observations from a re-analysis of the deposited data

How the results depend on the processing

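The tests over all libraries called 0 genes, 0 members and 0 genes of the further lists with edgeR's quasi-likelihood test and with limma-voom, and 2943 and 3101 genes had an unadjusted p under 0.05. DESeq2 called 1117 genes, 2 members and 13 genes of the further lists. Leaving out 1 library gave 0 to 2290 genes, 0 to 3 members and 0 to 20 genes of the further lists, and each upper value arose without αGlu 1 and each 0 without any of the other 5 libraries. Of 109 alternative fold changes of 9 members, 104 kept direction and side of the threshold, 5 became calls and 0 changed sign. The 5 were Tnf, Fas and Tnfsf14 without αGlu 1 and Fas and Tnfsf14 with DESeq2. The setting with no fold limit uses the main fit again, so its fold changes could not differ. Both it and the main fit are among the settings counted above for the members tested over all libraries. Tnfsf14 had no fit without αGlu 2 or αGlu 3, since it then missed the filter. Library size alone as scaling moved the median log2 fold change of all genes from 0.02 to 0.10. The labels do not state that replicate numbers pair samples, although the study used a paired t test for the fragment level in transfected Mφs. Deviations of same-numbered libraries correlated at 0.076, 0.065 and 0.15, above those of all differently numbered libraries (-0.11 to 0.046). These values cannot settle whether the cultures were paired, and the main fit takes no pairing into account. The replicate block gave 17 called genes, 0 members and 0 genes of the further lists. The log2 difference of the Tnfrsf1b to Tnfrsf1a ratio ran from -0.29 to -0.082 when 1 library was left out. With the block it stayed at -0.21, which the balanced design fixes in advance. RPKM gave the same share of Tnfrsf1b (69.5%) and the same ratio as TPM. Within a library these units differ by a constant factor, so their match is no check. Depth limits Ltb and Tnfsf14 in Ctr, at 1 to 8 reads.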

Other observations

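Several family members left no read in any library. Among the other ligands these were Tnfsf11 (RANK ligand), Cd40lg, Cd70 and Eda, 4 of 12 genes, and among the other receptors Tnfrsf19, Tnfrsf25 and Edar, 3 of 24. A count of 0 allows up to 0.0944 CPM in αGlu 2 and 0.172 CPM in αGlu 1. Cd40 and Tnfrsf11a were thus counted in all libraries while their ligand genes were not.

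Further receptors of the ligands are given here as values. The receptor of LIGHT Tnfrsf14, chosen after its values were seen, was at 23.5, 20.98 and 17.5 CPM in Ctr versus 26.8, 22.5 and 26.7 CPM in αGlu, with overlap between the groups. Tnfrsf12a, the TWEAK receptor, was at 10.1, 14.9 and 9.19 CPM in Ctr versus 11.1, 3.21 and 2.71 CPM in αGlu. For the BAFF receptors, Tnfrsf13b (TACI) was at 10.7 ± 2.71 CPM in Ctr (SD, n = 3) versus 12.98 ± 2.30 CPM in αGlu, while Tnfrsf13c and Tnfrsf17 had at most 2 reads in a library.

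Of the decoy receptors for TRAIL, Tnfrsf22 was at 5.54, 5.6 and 5.61 CPM in Ctr versus 5.16, 3.46 and 3.04 CPM in αGlu, all below Ctr, whereas Tnfrsf23 was above Ctr in all αGlu libraries. Tnfrsf22 was chosen after its values were seen, and the difference between the 2 genes was not tested.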
